A study of Mus musculus with 12 samples.

Results

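The circadian clock genes examined here are the transcription factors Arntl and Npas2, the repressors Per1, Per2, Per3 and Cry1, the nuclear receptors Nr1d1 and Nr1d2, and the output factors Dbp and Tef. They were taken by symbol from a table of 24475 genes, and all 10 were found. The table holds RPKM values, read numbers scaled by gene length and by library depth, of polyadenylated liver RNA from fed mice. There were 6 wild-type (WT) libraries, numbered 1 to 6, and 6 libraries of mice lacking Gcg (Gcg KO), numbered 7 to 12; Gcg encodes the precursor of glucagon, a pancreatic hormone that acts on hepatocytes. The study compared the genotypes with regard to liver zonation, the division of labour between hepatocytes along the lobule. All libraries share the fed state, and the labels give no time of collection, sex, age, strain, batch or statement that each library is a separate animal. The p-values therefore rest on differences among these libraries, and part of those may be technical.

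The liver clock is a feedback loop of transcription. ARNTL (BMAL1), paired with CLOCK or NPAS2, binds E-box sequences and drives Per, Cry, Nr1d and Dbp transcription; PER and CRY proteins then repress ARNTL, while NR1D1 and NR1D2 (REV-ERB alpha and beta) repress Arntl itself through ROR/REV-ERB elements. DBP and TEF are PAR bZIP factors that act on D-box sequences in output genes and in Per genes. In mouse liver Arntl and Npas2 peak at a phase opposite to Nr1d1 and Dbp. Liver clock genes also respond to feeding and hormones, and Per1 in particular is inducible by cAMP and glucocorticoids.

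The sequences by which these factors are known to reach each other were looked for in RefSeq promoter windows of GRCm38.p6, each from 250 bases before to 50 bases after a gene's start; 9 of the 10 members had a window, 12 windows in all. Some stretches holding a match are shown, although a match by itself does not place a gene in the loop. The other Tef window and the Nr1d2 window also hold a match and are not shown. Each runs 5′ to 3′ on the gene's own strand, with matches in capitals, except the lone AGGTCA match of Per1, which is left in lower case. The Arntl stretch is chr7:113207527-113207556 (plus strand), just inside the transcribed part, and the others are the 250 bases before the start: Per3 chr4:151044666-151044915 (minus), Tef chr15:81802423-81802672 (plus), Cry1 chr10:85185055-85185304 (minus), Nr1d1 chr11:98775378-98775627 (minus) and Per1 chr11:69098699-69098948 (plus).
Arntl: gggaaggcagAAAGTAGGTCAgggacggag
Per3: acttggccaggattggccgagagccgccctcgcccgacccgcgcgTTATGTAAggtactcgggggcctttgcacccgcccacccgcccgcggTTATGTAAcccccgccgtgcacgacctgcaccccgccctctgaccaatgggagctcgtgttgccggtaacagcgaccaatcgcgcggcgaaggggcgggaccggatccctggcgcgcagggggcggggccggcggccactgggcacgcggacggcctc
Tef: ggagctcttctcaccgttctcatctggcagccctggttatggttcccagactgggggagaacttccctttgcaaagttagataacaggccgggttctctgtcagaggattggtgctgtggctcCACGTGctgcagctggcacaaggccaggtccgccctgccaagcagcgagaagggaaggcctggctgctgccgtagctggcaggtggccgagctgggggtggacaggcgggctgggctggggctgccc
Cry1: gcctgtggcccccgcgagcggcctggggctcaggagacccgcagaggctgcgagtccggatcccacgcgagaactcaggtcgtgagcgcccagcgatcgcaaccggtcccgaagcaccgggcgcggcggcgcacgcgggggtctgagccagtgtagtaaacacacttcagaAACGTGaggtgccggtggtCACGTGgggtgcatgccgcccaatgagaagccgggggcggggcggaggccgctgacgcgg
Nr1d1: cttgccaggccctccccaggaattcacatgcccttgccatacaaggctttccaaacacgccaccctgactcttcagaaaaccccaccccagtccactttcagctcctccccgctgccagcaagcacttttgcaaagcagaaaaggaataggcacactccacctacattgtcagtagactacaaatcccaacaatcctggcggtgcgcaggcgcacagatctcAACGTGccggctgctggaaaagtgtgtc
Per1: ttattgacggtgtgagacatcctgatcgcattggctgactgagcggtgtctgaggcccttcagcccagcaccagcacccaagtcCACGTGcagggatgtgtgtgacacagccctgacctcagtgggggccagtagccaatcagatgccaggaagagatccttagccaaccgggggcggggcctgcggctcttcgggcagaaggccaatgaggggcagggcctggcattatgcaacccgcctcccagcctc

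The E-box CACGTG was in windows of Per1, Tef and Cry1 (4 of 12 windows), against 7.15% of all 32851 promoter windows, and its variant CACGTT, read on either strand, was in those of Cry1 and Nr1d1 (4.68% of all windows). The D-box core TTANGTAA occurred at 2 places in the Per3 window and in no other member's (2.32% of all windows). The ROR/REV-ERB element matched in 1 of the 2 Arntl windows, 26 bases after the start, and in 0.384% of all windows; it contains AGGTCA, which alone was also in the windows of Per1 and Nr1d2 (16.3% of all). The cAMP response element TGACGTCA (1.79% of all windows) and the full palindromic glucocorticoid element (0.00913%) had 0 matches among the 12. A match is a run of letters and not a measured binding site, and these windows hold only the bases around the start.

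By mean RPKM, a scale per gene length on which levels of different genes can be compared, Nr1d1 was the most abundant of the 10 (18.6 over the 12 libraries) and Per3 the least (0.516). Nr1d2 (10.8), Tef (10.02), Arntl (8.32) and Per1 (6.78) followed Nr1d1, then Cry1 (4.32), Per2 (2.11), Npas2 (1.59) and Dbp (0.939). The ranges of all 9 pairs of neighbours in this order overlapped. Depth, estimated from the smallest step of the low values, was 10300000 to 15000000 reads per library. On the longest annotated transcript that is about 427 to 826 reads for Nr1d1, but only 3.3 to 55.6 reads for Dbp and 16.0 to 75.1 for Per3, so that the lowest Dbp values carry a large counting error. Gcg was listed at 0 RPKM in all 12 livers, WT included, and checks no label here; the hepatocyte marker Alb lay between 22432 and 31956 RPKM. The libraries WT 6, Gcg KO 10 and Gcg KO 12 stood apart on the first principal component (17.0 to 28.8, the other 9 at 6.99 or lower). Several results that rest on them, but not all, are given with and without them. No library pair of the 66 was identical.

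Loss of Gcg left no clock gene past the threshold. In limma on log2(RPKM + 0.5), with p adjusted by Benjamini-Hochberg over 11347 tested genes and a threshold of 0.05, 0 of the 10 members were higher and 0 lower in Gcg KO, against 3.87% of all tested genes called in either direction. At an unadjusted p under 0.05, 0 members were higher and 1, Arntl, was lower, where 15.7% of all tested genes passed (8.75% higher, 6.96% lower). The groups overlapped for all 10 members, and did not for 3.09% of all tested genes (1.5% with Gcg KO lower). The median log2 fold change (Gcg KO over WT) was -0.075 over the members, 5 above 0 and 5 below, and 0.014 over all tested genes. Without the 3 libraries apart the members called were again 0.

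**Figure D1:**
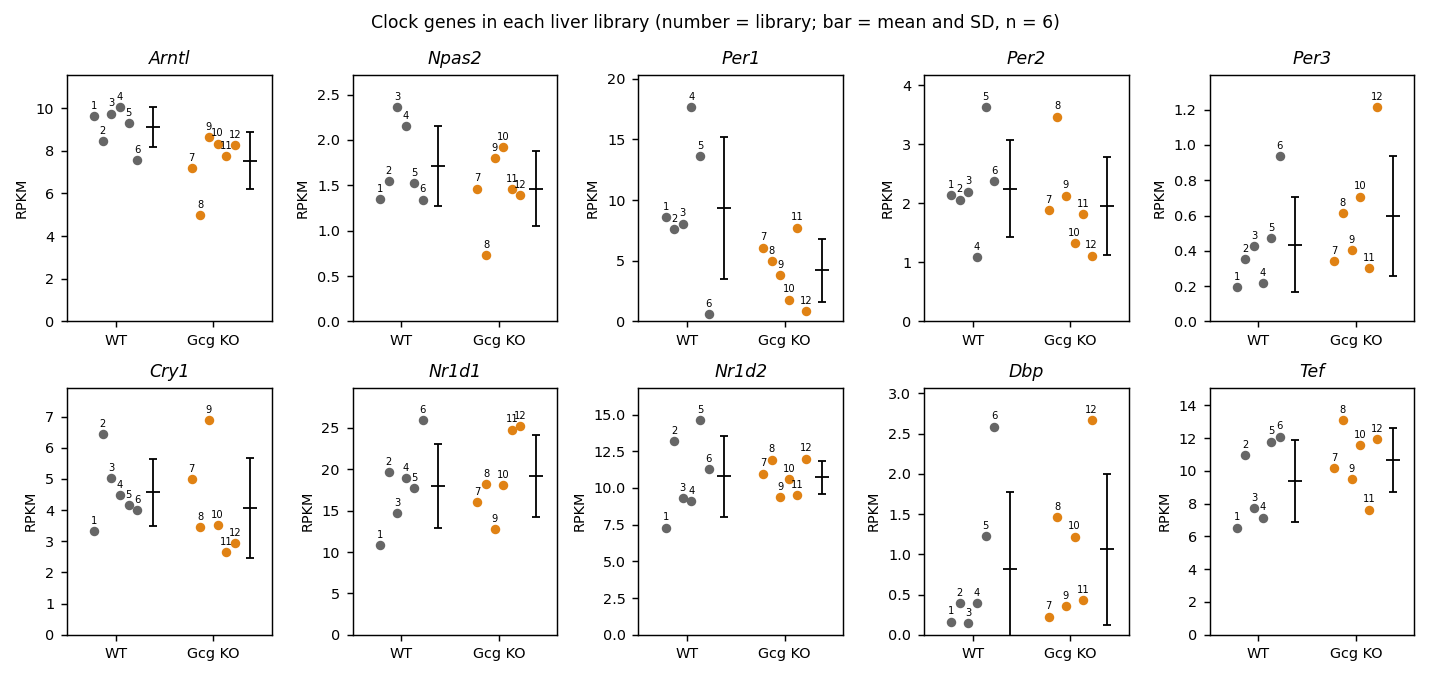
RPKM of the 10 clock genes, 1 numbered point per library (6 WT in grey, 6 Gcg KO in orange), with black bars for mean and SD; the lower end of the WT bar of Dbp lies below 0 and is not drawn. The groups overlap in every panel, Per1 is lowest in WT 6 and Gcg KO 12, and Dbp and Per3 are highest in these same libraries.

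Of the 2 activators among the members, Arntl, the non-redundant partner of CLOCK, had the narrower spread on the log2 scale and the smaller p-value. It lay between 7.56 and 10.1 RPKM in WT (median 9.45) and between 5.0 and 8.65 RPKM in Gcg KO (median 8.0). In 4 of 6 WT libraries it was above every Gcg KO library; WT 6 and WT 2 were the exceptions, and Gcg KO 8 was lowest of all. The group means were 9.12 ± 0.943 and 7.53 ± 1.34 RPKM (SD, n = 6 each). The log2 fold change of -0.27 ± 0.12 (SE), with a 95% interval of -0.53 to -0.020, was not called by limma (unadjusted p = 0.0366, adjusted p = 0.270). Without the 3 libraries apart it was -0.40 ± 0.13 (adjusted p = 0.161).

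Npas2, which can stand in for CLOCK, was expressed at a lower level, from 1.34 to 2.37 RPKM in WT (median 1.53) and from 0.735 to 1.92 RPKM in Gcg KO (median 1.46). The ranges overlapped, and Gcg KO 8 was lowest, as for Arntl. Its log2 fold change was -0.18 ± 0.17 (SE, adjusted p = 0.676).

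Per1 gave the largest difference in size and the widest spread. In WT it ranged from 0.586 to 17.7 RPKM (median 8.34) and in Gcg KO from 0.837 to 7.73 RPKM (median 4.39). It was high in WT 4 (17.7 RPKM) and WT 5 (13.6 RPKM). The 3 libraries that stood apart had the least, 0.586 to 1.79 RPKM, against 3.83 to 17.7 RPKM in the other 9. The means were 9.36 ± 5.83 and 4.2 ± 2.60 RPKM (SD, n = 6 each). The log2 fold change was -0.92 ± 0.62 (SE), with an interval of -2.25 to 0.42 (limma adjusted p = 0.538). Leaving out WT 6 gave -1.47 (adjusted p = 0.0842), leaving out Gcg KO 12 gave -0.60 (adjusted p = 0.721), and without all 3 the log2 fold change was -0.88 ± 0.26 (adjusted p = 0.116).

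Other transcripts were also low in those 3 libraries, but not every gene of their lists. Of 11 genes induced by cAMP or CREB, 6 were lower in each of the 3 than in any of the other 9 libraries and 5 overlapped. Of 8 glucocorticoid-induced genes, 4 were lower and 4 overlapped. The share of all tested genes that lay lower in this way was not counted. The 3 libraries were also set apart by these same data, so the counts do not single out these lists. Nr4a1, an orphan nuclear receptor, reached at most 0.997 RPKM in these 3 libraries but never less than 3.39 RPKM elsewhere, and Sik1, a kinase gene, at most 1.76 RPKM but never less than 4.17 RPKM elsewhere. Tsc22d3, the glucocorticoid-induced leucine zipper, ran from 25.4 to 57.5 RPKM here and from 60.8 to 101 RPKM elsewhere. By contrast Pde4b, a cAMP phosphodiesterase gene, ran from 0.727 to 4.52 RPKM here and from 0.890 to 9.38 RPKM elsewhere. Fkbp5, a glucocorticoid-induced cochaperone gene, ran from 3.22 to 6.91 RPKM here and from 3.72 to 11.7 RPKM elsewhere. These 5 examples were chosen after their values were seen. Summed over 10 genes of the fasted or fed state, RPKM ran from 909 to 1038 here and from 1095 to 1655 elsewhere. The single genes of that list were not counted. Summed over 5 neutrophil markers, RPKM ran from 2.17 to 2.93 here and from 18.3 to 66.9 elsewhere; summed over 7 hepatocyte markers, it ran from 49579 to 53852 here and from 43845 to 60578 elsewhere. None of the 5 neutrophil markers was at 0 in all libraries. The part of any of these lists in the Per1 values was not tested. In bulk tissue, fewer cells of a type and less RNA per cell cannot be told apart.

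Per2, a repressor in the same complex as PER1, did not follow Per1. It ranged from 1.10 to 3.64 RPKM in WT (median 2.17) and from 1.12 to 3.47 RPKM in Gcg KO (median 1.86). WT 4, which had the highest Per1, had the lowest Per2, and Per2 was highest in WT 5 and Gcg KO 8. The log2 fold change was -0.17 ± 0.23 (SE, adjusted p = 0.802), and 0.081 without the 3 libraries apart.

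Per3, a PER paralog regarded as dispensable for the core rhythm, was the scarcest member. It ranged from 0.195 to 0.936 RPKM in WT (median 0.390) and from 0.303 to 1.22 RPKM in Gcg KO (median 0.510). Gcg KO 12 and WT 6, both low in Per1, were the highest for Per3, with Gcg KO 10 next at 0.707 RPKM. Gcg KO over WT, its log2 fold change was 0.23 ± 0.21 (SE, adjusted p = 0.690). Its mean over all libraries barely exceeded the filter of 0.5 RPKM, and it was tested in 17 of 22 alternative analyses. Per3 shares 4714 bases with Uts2 on the other strand, which was listed at 0 RPKM in all 12 libraries.

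Cry1, the strongest repressor of the ARNTL complex among the members, lay between 3.33 and 6.44 RPKM in WT (median 4.32) and between 2.65 and 6.89 RPKM in Gcg KO (median 3.49). Gcg KO 9 and WT 2 were high, and 4 of 6 Gcg KO libraries lay at 3.51 RPKM or lower. For Cry1 the log2 fold change was -0.19 ± 0.20 (SE, adjusted p = 0.729).

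The REV-ERB genes had fold changes near 0. Nr1d1 lay between 10.8 and 25.9 RPKM in WT (median 18.3) and between 12.7 and 25.2 RPKM in Gcg KO (median 18.2), highest in WT 6, Gcg KO 12 and Gcg KO 11 and lowest in WT 1. Its log2 fold change was 0.10 ± 0.20 (SE), with an interval of -0.33 to 0.53 (adjusted p = 0.880). The Nr1d1 gene (chromosome 11, 98767932 to 98775377) shares 1075 bases with Thra, a thyroid hormone receptor gene on the other strand that lay between 3.84 and 7.41 RPKM; reads of the pair cannot be told apart unless strand was used in counting, which no source used here states. Nr1d2 lay between 7.29 and 14.6 RPKM in WT (median 10.3) and between 9.35 and 11.99 RPKM in Gcg KO (median 10.8). Its log2 fold change was 0.021 ± 0.14 (SE), with an interval of -0.29 to 0.33 (adjusted p = 0.9746).

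Dbp, a direct E-box target and among the most strongly cycling liver transcripts, differed 18.7-fold between the lowest and the highest library. In WT it ranged from 0.143 to 2.59 RPKM (median 0.394) and in Gcg KO from 0.225 to 2.67 RPKM (median 0.826). The high libraries were Gcg KO 12 (2.67 RPKM), WT 6 (2.59 RPKM), Gcg KO 8 (1.46 RPKM), WT 5 (1.23 RPKM) and Gcg KO 10 (1.22 RPKM); the other 7 lay at 0.433 RPKM or lower. High and low libraries occurred in both genotypes, and the log2 fold change was 0.29 ± 0.44 (SE), with an interval of -0.65 to 1.23 (adjusted p = 0.824). Without the 3 libraries apart it was 0.20 ± 0.34 (limma adjusted p = 0.853). The Dbp gene (chromosome 7, 45705100 to 45710203) shares 741 bases with Sphk2, a sphingosine kinase gene on the other strand that lay between 6.14 and 14.8 RPKM. Sphk2 ran from 13.6 to 14.8 RPKM in WT 6, Gcg KO 10 and Gcg KO 12 and from 6.14 to 13.0 RPKM elsewhere. As for Nr1d1 and Thra, reads of the pair cannot be told apart unless strand was used in counting. The part of Sphk2 in the Dbp values was not tested, and this limit holds for every Dbp result below.

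Tef, the PAR bZIP paralog of Dbp, was about as abundant as Nr1d2 and varied less than Dbp. It lay between 6.54 and 12.1 RPKM in WT (median 9.35) and between 7.64 and 13.1 RPKM in Gcg KO (median 10.9). Gcg KO 8, WT 6 and Gcg KO 12 were high and WT 1 was lowest. For Tef the log2 fold change was 0.20 ± 0.17 (SE, adjusted p = 0.655).

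**Figure D2:**
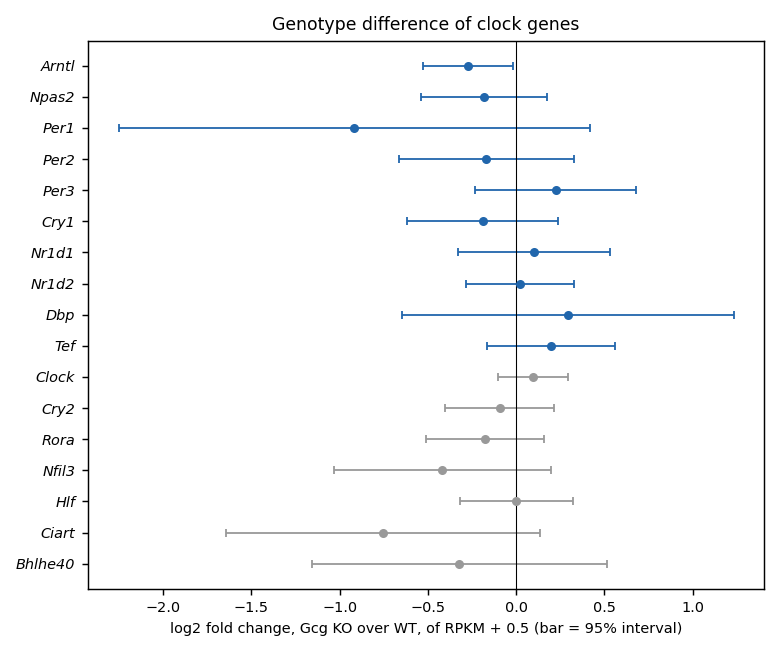
Log2 fold change (Gcg KO over WT, of RPKM + 0.5) with its 95% interval for the 10 members (blue) and 7 other clock factors (grey). The interval of Arntl, -0.53 to -0.020, is the one member interval that lies wholly on one side of 0, and that of Per1, -2.25 to 0.42, is the widest; none passed the adjusted threshold.

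Libraries of 1 genotype lay further apart for most clock genes than for most genes. The SD of log2(RPKM + 0.5) within a genotype was 1.24 for Per1 (percentile 99.6 among the 11347 tested genes), 0.86 for Dbp (98.4), 0.45 for Per2 (93.6), 0.40 for Per3 (91.5), 0.39 for Nr1d1 (91.3) and 0.39 for Cry1 (91.0). Tef (0.33), Npas2 (0.31), Nr1d2 (0.27) and Arntl (0.22, percentile 64.9) varied less. In all, 6 of 10 members were above the 90th percentile, and the median was 0.39, against 0.18 for all tested genes. Part of this spread rests on WT 6, Gcg KO 10 and Gcg KO 12: without them the SD was 0.47 for Per1 (percentile 95.3), 0.21 for Per3 (66.9) and 0.60 for Dbp (97.3). Over the remaining 9 libraries 5 of 10 members were above the 90th percentile, with a median of 0.35 against 0.17 for all tested genes. For Dbp and Per3 the spread includes the counting error of few reads.

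**Figure D3:**
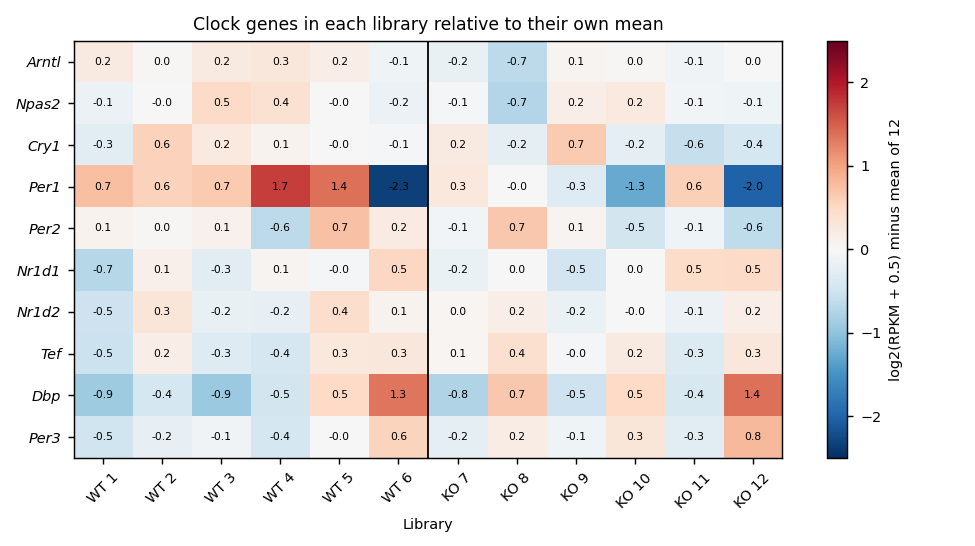
Log2(RPKM + 0.5) of each member (rows) in each library (columns, WT 1 to 6 and Gcg KO 7 to 12) minus the member's mean over the 12 libraries. WT 6 and Gcg KO 12 combine low Per1 with high Dbp, Per3 and Nr1d1, and Gcg KO 8 is lowest in Arntl and Npas2.

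The relation of Arntl, Nr1d1 and Dbp in single libraries was examined next, because these genes mark opposite phases of the cycle. The ratio of Dbp to Arntl (RPKM) ran from 0.0146 in WT 3 to 0.342 in WT 6 among WT libraries and from 0.0314 in Gcg KO 7 to 0.323 in Gcg KO 12 among Gcg KO libraries, with medians of 0.0429 and 0.101. The ratio of Nr1d1 to Arntl ran from 1.13 to 3.43 in WT (median 1.89) and from 1.47 to 3.65 in Gcg KO (median 2.64). Arntl exceeded Dbp, and Nr1d1 exceeded Arntl, in all 12 libraries. The ranges of both ratios overlapped between genotypes, and these ratios carry no test. Without the 3 libraries apart the medians were 0.0388 in WT and 0.0482 in Gcg KO for Dbp to Arntl, and 1.88 and 2.72 for Nr1d1 to Arntl.

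Dbp and Nr1d1 tended to be high in the same libraries, while Arntl ran weakly against both. Over the 12 libraries Pearson's r of log2(RPKM + 0.5) was 0.68 for Dbp with Nr1d1 (two-sided permutation test, p = 0.0173, adjusted over 45 pairs of members p = 0.0974), with a Spearman rho of 0.76 (p = 0.0055, adjusted p = 0.0615). For Arntl with Dbp r was -0.39 (permutation p = 0.207, adjusted p = 0.416) and rho -0.53 (p = 0.0782, adjusted p = 0.235). For Arntl with Nr1d1 r was -0.29 (permutation p = 0.357, adjusted p = 0.502) and rho -0.43 (p = 0.160, adjusted p = 0.327). None of the 3 passed after adjustment.

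Within WT alone r was 0.78 for Dbp with Nr1d1 (exact permutation p = 0.0681), -0.76 for Arntl with Dbp (exact permutation p = 0.0653) and -0.70 for Arntl with Nr1d1 (exact permutation p = 0.124). Within Gcg KO the values were 0.54 (exact permutation p = 0.260), -0.16 (exact permutation p = 0.838) and -0.016 (exact permutation p = 0.976). The difference between the genotypes was not tested. Gcg KO 8, with the lowest Arntl but a middling Nr1d1 of 18.3 RPKM, lies off the WT trend of Arntl with Nr1d1. Its Dbp of 1.46 RPKM was among the high values, so this does not hold for Arntl with Dbp. Without WT 6 and Gcg KO 12, the libraries farthest from the median of Dbp, r of Dbp with Nr1d1 was 0.41 and rho 0.60 (permutation p = 0.238 and 0.0737), and without the 3 libraries apart they were 0.41 and 0.67; the linear relation thus rests on these libraries more than the rank order does. Without Gcg KO 8 and WT 4, farthest from the median of Arntl, r was -0.30 with Dbp and -0.60 with Nr1d1 (permutation p = 0.0672).

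**Figure D4:**
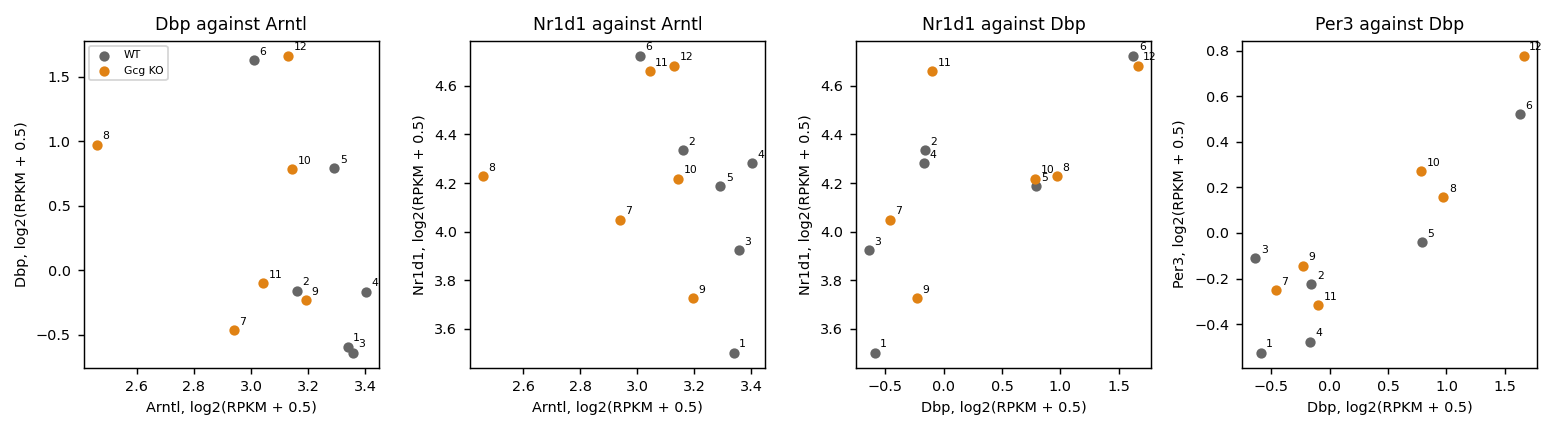
Log2(RPKM + 0.5) of pairs of members, 1 point per library with its number, WT grey and Gcg KO orange. Dbp and Per3 rise together (r = 0.90), Dbp and Nr1d1 more loosely (r = 0.68), and Gcg KO 8 lies apart on the left of both Arntl panels.

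Over all 45 pairs of members, 6 passed a permutation p of 0.05 adjusted over the pairs, 5 of them positive. Dbp with Per3 gave the highest r, 0.90 (adjusted p = 0.00795; 0.85 within WT and 0.95 within Gcg KO). Per3 is also the member whose promoter window above holds the D-box core, a match that says nothing of what drives it. Nr1d2 with Tef gave 0.84 (adjusted p = 0.00795; 0.91 within WT, 0.85 within Gcg KO), Arntl with Npas2 0.83 (adjusted p = 0.0289; 0.63 and 0.94), Dbp with Tef 0.77 (adjusted p = 0.0341; 0.80 and 0.72) and Per3 with Tef 0.76 (adjusted p = 0.0341; 0.77 and 0.71).

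The 1 negative pair was Per1 with Per3, at -0.87 (adjusted permutation p = 0.00795), -0.84 within WT and -0.93 within Gcg KO. It was -0.44 without WT 6, Gcg KO 10 and Gcg KO 12, where the other 5 pairs had r between 0.69 (Per3 with Dbp) and 0.88 (Nr1d2 with Tef). With 9 libraries 0 of the 45 pairs passed after adjustment. Within 1 genotype 0 passed as well (smallest adjusted permutation p = 0.295 in WT and 0.188 in Gcg KO). Without the 2 libraries farthest from the median of a pair's first gene, 0 passed too. Without the 2 libraries farthest from the median of Arntl (Gcg KO 8 and WT 4), r of Arntl with Npas2 was 0.45, so that this relation rests on them. By Spearman's rho, 3 of the 6 pairs passed after adjustment, Per3 with Tef (0.87), Dbp with Tef (0.81) and Nr1d2 with Tef (0.81).

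The remaining clock factors were followed as a list of 9, of which 7 passed the filter on low values and 0 were higher or lower in Gcg KO, also at an unadjusted p under 0.05. Clock, the partner of ARNTL, averaged 8.40 ± 0.871 RPKM in WT libraries against 9.03 ± 1.13 RPKM in Gcg KO (SD; limma adjusted p = 0.698). Cry2, the CRY1 paralog, had 7.20 ± 1.75 and 6.66 ± 1.16 RPKM. Rora, an activator at ROR/REV-ERB elements, averaged 11.8 ± 2.33 RPKM in WT against 10.4 ± 2.34 RPKM in Gcg KO. Hlf, a further PAR bZIP gene, had 6.50 ± 1.145 and 6.57 ± 1.48 RPKM. Nfil3, the repressor that competes at D-boxes, had 25.6 ± 9.34 and 18.8 ± 6.82 RPKM (limma adjusted p = 0.544). In WT 6, Gcg KO 10 and Gcg KO 12 Nfil3 ran from 10.7 to 12.6 RPKM, against 18.6 to 38.6 RPKM elsewhere. Rora ran from 7.84 to 8.85 RPKM in these libraries and from 8.89 to 14.2 RPKM elsewhere. For Clock, Cry2 and Hlf the ranges overlapped. Rorb was at most 0.0098 RPKM and Bhlhe41 at most 0.545 RPKM, and neither was tested.

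As for Per1, the highest values of 2 further repressors were in WT 4 and WT 5. Bhlhe40 (DEC1) reached 70.2 and 85.0 RPKM there and had 12.9 to 47.9 RPKM in the other libraries, lowest in WT 6. It ran from 12.9 to 23.3 RPKM in WT 6, Gcg KO 10 and Gcg KO 12, and was at least 24.5 RPKM elsewhere. Ciart (CHRONO) had 2.17 and 4.62 RPKM in WT 4 and WT 5, and 0.122 RPKM in WT 6. Between WT 6, Gcg KO 10 and Gcg KO 12 and the other libraries its ranges overlapped. The log2 fold changes of Bhlhe40 and Ciart were -0.32 ± 0.39 and -0.75 ± 0.41 (SE, limma adjusted p = 0.776 and 0.416).

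Of 9 tested genes for clock protein modifiers and 15 for rhythmic liver outputs, limma called 3. Ccrn4l, which encodes the rhythmic protein nocturnin, fell from 3.24 to 41.7 RPKM in WT (median 21.0) to between 0.548 and 6.67 RPKM in Gcg KO (median 3.28). WT 6 was the 1 WT library within the Gcg KO range. The means were 21.2 ± 13.5 and 3.17 ± 2.41 RPKM (SD), 5.95-fold lower on the log2(RPKM + 0.5) scale (log2 fold change -2.57 ± 0.61 SE, limma adjusted p = 0.0309). Without the 3 libraries apart the log2 fold change was -2.29 (adjusted p = 0.0049). The call of Ccrn4l was lost without WT 1, WT 2, WT 3, WT 4, WT 5, Gcg KO 10 or Gcg KO 12 singly, where adjusted p ran from 0.0508 to 0.0719.

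Elovl3, a fatty acid elongase with a daily rhythm in liver, fell from 322 to 482 RPKM in WT (median 368) to between 159 and 349 RPKM in Gcg KO (median 216). Gcg KO 9 was the 1 Gcg KO library within the WT range. The log2 fold change was -0.77 ± 0.16 (SE, limma adjusted p = 0.0153), and it was -0.60 without the 3 libraries apart (adjusted p = 0.0913). Nampt, the rate-limiting enzyme of NAD salvage and a target of the ARNTL complex, rose from 6.47 to 8.08 RPKM in WT (median 7.52) to between 8.62 and 14.1 RPKM in Gcg KO (median 11.2). The groups did not overlap, and the log2 fold change of 0.56 ± 0.097 (SE, limma adjusted p = 0.0049) was 0.65 without the 3 libraries. Per list, 1 of 9 modifiers rose and 0 fell, with a median log2 fold change of 0.054, and 0 of 15 outputs rose and 2 fell, with a median of 0.10; over all tested genes 1.95% were higher and 1.92% lower.

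**Figure D5:**
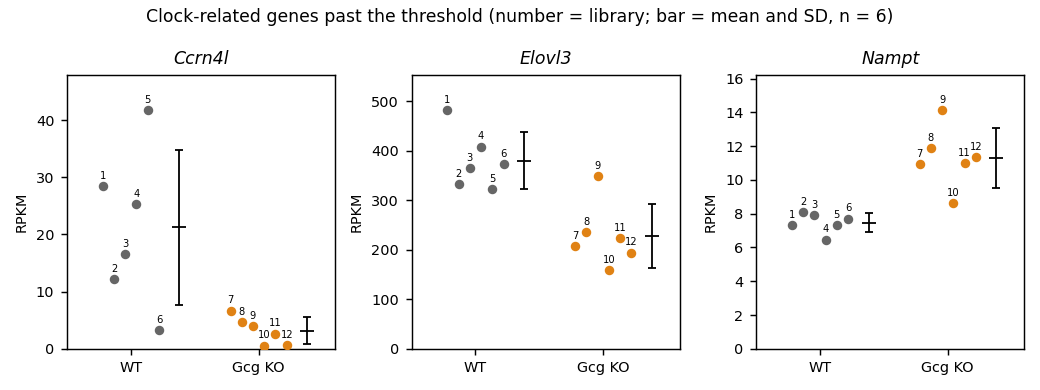
RPKM of Ccrn4l, Elovl3 and Nampt, 1 numbered point per library (6 WT in grey, 6 Gcg KO in orange), with black bars for mean and SD. Every Gcg KO library is above every WT library for Nampt, while WT 6 for Ccrn4l and Gcg KO 9 for Elovl3 fall within the range of the other genotype.

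The genes whose level followed 2 clock members most closely were ranked by Pearson's r over the 12 libraries, among genes with a mean of at least 2 RPKM and a gene name; these values describe the libraries and carry no test. For Dbp the 5 highest were Lipe, the hormone-sensitive lipase (r = 0.89), Slc2a9, a urate transporter (0.88), Sh3bp2 (0.87), Uaca (0.87) and Oaz2, an ornithine decarboxylase antizyme (0.86). The 5 lowest were Gfra1, a GDNF coreceptor (-0.96), Pnrc1 (-0.92), Fam35a (-0.86), Usp36 (-0.86) and the nuclear receptor Ppard (-0.86). Gfra1 varied only from 28.7 to 32.1 RPKM, while Pnrc1 varied from 21.6 to 73.2 RPKM. Without the 3 libraries apart, r with Dbp ran from 0.52 (Oaz2) to 0.91 (Uaca) for the first 5 and from -0.94 (Gfra1) to -0.63 (Fam35a) for the others.

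For Arntl the 5 highest were Kdm4a, a histone demethylase (r = 0.87), Itih2 (0.86), Apoc4-apoc2 (0.85), Atp6v0c (0.84) and Zcchc8 (0.83). The 5 lowest were Preb (-0.86), Cyp2d9 (-0.85), Apoc2 (-0.85), Gpd1, glycerol-3-phosphate dehydrogenase (-0.84), and Ttc13 (-0.84). For the first 5, r ran from 0.34 (Zcchc8) to 0.78 (Kdm4a) within WT and from 0.82 (Itih2) to 0.94 (Atp6v0c) within Gcg KO. For the others it ran from -0.86 (Gpd1) to -0.51 (Preb) within WT and from -0.99 (Preb) to -0.73 (Gpd1) within Gcg KO. Without the 3 libraries apart, r ran from 0.87 to 0.90 for the first 5 and from -0.89 to -0.84 for the others. Atp6v0c ranged from 0.222 to 101.6 RPKM, and the source of this range was not tested. Apoc4-apoc2 is a readthrough model that contains Apoc2, and these stood at opposite ends, from 4.7e-07 to 294.9 RPKM and from 17.9 to 199.9 RPKM; no source used here states how reads shared by them were divided, and both values are uncertain.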

How the data were processed

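RPKM values of 24475 genes in 12 liver libraries were deposited by the authors as 1 table; the unit was read from the table's name. CASAVA 1.8.2, FastQC and GRCm38 are named in the submitters' processing notes; an aligner, a counting tool or an annotation is not given in these sources. The libraries are strand-specific and polyadenylated, per the labels' protocols. Each library's group came from its title, and 0 value columns were left unmatched.

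Genes with a mean of at least 0.5 RPKM (11347) were tested on log2(RPKM + 0.5) by limma 3.58.1 under R 4.3.3 (genotype as the only term, intensity trend on, two-sided p). Benjamini-Hochberg adjustment covered every tested gene. Fold changes on this scale understate changes of low genes. Every adjusted p of a gene comes from this test. Values in brackets after ± are SD of 6 libraries or SE of the model, as stated. Depth was estimated from genes with 1 annotated transcript, where 55 to 85 genes per library lay within 1% of a common lowest step; no count test was run. Correlations used 100000 permutations over 9 to 12 libraries and all 720 pairings within a genotype (smallest possible p, 0.00139), adjusted over 45 pairs. The scripts were tested on simulated data.

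The members and gene lists were chosen with earlier results of these data known. Named genes are all members, the other clock factors (1 more is not reported here), list genes past the threshold, genes that overlap a member, and the 5 genes at each end of the ranking by r for Arntl and Dbp; Nr4a1, Sik1, Tsc22d3, Fkbp5 and Alb are named outside this rule. Cell type markers and lists of cAMP-, glucocorticoid-, feeding- and temperature-responsive genes were also followed. Gene coordinates, counted from 1, and promoter windows are RefSeq's for GRCm38.p6, with strands from GENCODE. Reads per gene are estimates on the longest GENCODE transcript.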

Additional observations from a re-analysis of the deposited data

Results flagged for a closer look

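On the log2(RPKM + 0.5) scale, 3 of the 20 groups of 6 values (10 clock members in 2 genotypes) had a lowest library far from the other 5, where the gap to the next library divided by the range of the group exceeded Dixon's 95% critical value for 6 samples. Arntl in Gcg KO 8 (5.0027 RPKM) had a ratio of 0.654, Npas2 in Gcg KO 8 (0.735 RPKM) a ratio of 0.636 and Per1 in WT 6 (0.586 RPKM) a ratio of 0.713. On the RPKM scale 0 of the 20 groups exceeded it. The log2 scale was added after the data were seen, and chance gives about 1 such group in 20.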

How the results depend on the processing

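The count of clock members called was 0 in both directions under all 22 alternatives (Per3 was tested in 17, Npas2 and Dbp in 21): pseudocounts of 0.1 and 1, no filter or a mean of at least 2 RPKM, quantile and median-of-ratios scaling, no trend, robust moderation, library weights, each library left out, and WT 6, Gcg KO 10 and Gcg KO 12 left out together. The same held for the other clock factors. Some fold changes near 0 changed sign without passing the threshold in either analysis. With the 3 libraries left out together, Per2 was 0.081 and Hlf -0.034. Under quantile normalization Nr1d2 was -9.4e-05 and Hlf -0.024, under median-of-ratios scaling Hlf was -0.014, and with library weights Nr1d2 was -0.014 and Hlf -0.029. Leaving out 1 library at a time gave -0.029 to 0.22 for Nr1d1, -0.079 to 0.11 for Nr1d2, -0.15 to 0.016 for Cry2 and -0.065 to 0.087 for Hlf. Ccrn4l also lost its call with no filter (adjusted p = 0.0691) and with robust moderation (adjusted p = 0.0646); its cause was not tested. Over all genes, 221 were higher and 218 lower; leaving out 1 library gave 136 to 261 higher and 141 to 210 lower, the lowest of each without WT 3, and 142 were higher without Gcg KO 9. Without the 3 libraries, where fewer samples were tested, 128 were higher and 171 lower. No paired analysis was possible because the labels number the libraries 1 to 6 and 7 to 12, so that the genotypes share no replicate number. Chosen after seeing the data, the spread without the 3 libraries moved by over 1.5 times for Per1 (0.47 from 1.24) and Per3 (0.21 from 0.40) and by less for the other 8 members. Counting error limits Dbp and Per3 most.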

Other observations

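Lists of genes that respond to signals known to reset the liver clock were counted in the same comparison, where limma called 1.95% of all tested genes higher and 1.92% lower, and 15.7% passed at an unadjusted p under 0.05 (8.75% higher, 6.96% lower). Of 9 tested cAMP- and CREB-induced genes, Pde4b fell from a mean of 6.10 ± 2.41 to 1.23 ± 0.752 RPKM (SD, n = 6 each; limma log2 fold change -1.94 ± 0.26 SE, adjusted p = 6.1e-04), 0 rose and 8 did not pass; 5 of 9 passed unadjusted, all 5 lower. All 9 had a log2 fold change below 0, with a median of -1.01, against 45.7% of all tested genes below 0 and a median of 0.014. Of 8 glucocorticoid-induced genes 0 passed in limma, and 2 did unadjusted (1 higher, 1 lower). Of 9 genes of the fasted or fed state 0 passed, and 6 did unadjusted (5 higher, 1 lower). Of 8 temperature-responsive genes 0 passed, and 1 did unadjusted (higher).

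Of the cell type marker lists, limma called 1 of 7 tested hepatocyte markers lower (Ass1, a urea cycle enzyme, log2 fold change -1.39; 1 unadjusted) and 1 of 6 endothelial markers higher (Lyve1, 0.90; 2 unadjusted, both higher). It called 1 of 3 tested cholangiocyte markers higher (Spp1, osteopontin, 1.99; 2 unadjusted, both higher) and 1 of 5 erythroid markers lower (Hbb-bs, a beta globin with a near-identical paralog and so uncertain, -0.51; 1 unadjusted). It called 0 of 5 Kupffer cell markers (0 unadjusted), 0 of 5 neutrophil markers (0 unadjusted), 0 of 6 stellate cell markers (1 unadjusted, higher) and 0 of 1 tested lymphocyte marker (0 unadjusted).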
